A study of Mus musculus with 6 samples.

Results

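The axoneme is the microtubule core of the sperm tail and of motile cilia, and 76 genes for its parts were followed in mouse testis under a chronic ethanol diet. They were the protein-coding rows, of 45777 genes in the table, whose symbols name dynein heavy chains (Dnah), light chains (Dnal), dynein assembly factors (Dnaaf), tektins (Tekt), radial spoke proteins (Rsph), cilia and flagella associated proteins (Cfap) or regulatory complex subunits (Drc). Symbols of dynein intermediate chains (Dnai) were searched too, but matched no protein-coding row. Iqcd, Spag6, Spag16, Spag17, Spef1 and Spef2 were added by name. Choice was by symbol, with earlier results of these data known, and all 76 passed the filter on low counts. Testes came from wild-type mice that were fed a liquid diet of the LDC type, 10 ml a day for 16 weeks, after 5 days of acclimatization on the control form of that diet. The ethanol group had 3 libraries, from mice whose liquid diet held ethanol. The control group had 3 libraries, from mice on the control liquid diet. The labels name neither strain nor age, and do not say that each library is a separate animal. The p-values therefore reflect only how far these libraries spread, which may be technical.

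In the axoneme, a ring of outer doublet microtubules surrounds a central pair. Dynein arms on each doublet walk along its neighbour, the nexin-dynein regulatory complex turns that sliding into bending, and radial spokes carry signals from the central apparatus to the arms. Proteins inside the doublets, tektins among them, stiffen the tubules. In the testis nearly all of this is built by male germ cells, whose transcription of tail genes begins in meiosis and goes on in round spermatids, so that these genes are known above all for sperm motility and male fertility.

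Total counts were 38935654 to 43399317 in the ethanol libraries and 43389811 to 47420249 in the control libraries, and axoneme genes took 1.64 to 1.82% and 1.74 to 1.85% of them. Over 25073 genes tested, 0 had an adjusted p under 0.05 by edgeR's quasi-likelihood test (Benjamini-Hochberg), while 3343 had an unadjusted p under 0.05, and DESeq2 called 330. No axoneme gene passed by edgeR (0 of 76, background 0%), where the lowest adjusted p was 0.127. The differences below are therefore of genes that did not pass, unless another test is named. The sperm forms of several axoneme genes (Dnah8, Dnah17, Rsph6a) were abundant in every library, each above the related gene of other cilia.

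Most axoneme genes lay slightly lower in ethanol-fed testes. The log2 fold change was below 0 for 67 of 76, against 48.5% of all genes tested, with a median of -0.10 where all genes had 0.0065. At an unadjusted p under 0.05 there were 16 axoneme genes on the lower side and 0 on the higher side, against 5.89% and 7.45% of all genes. The 3 ethanol libraries lay below the 3 controls for 21 axoneme genes and above them for 1, against 9.01% and 9.76% of all genes. The count of 16 was 5 without ethanol library 2 (background 3.86%), and to 10 without control library 1 or without control library 3 (4.38% and 4.48%). It was 9 with scaling by total counts (background 4.37%) and 8 on log2(FPKM + 1) (5.78%). On log2(TPM + 1) it was 4 (background 3.02%), with a median of -0.05 over axoneme genes and 0.05 over all genes.

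**Figure D1:**
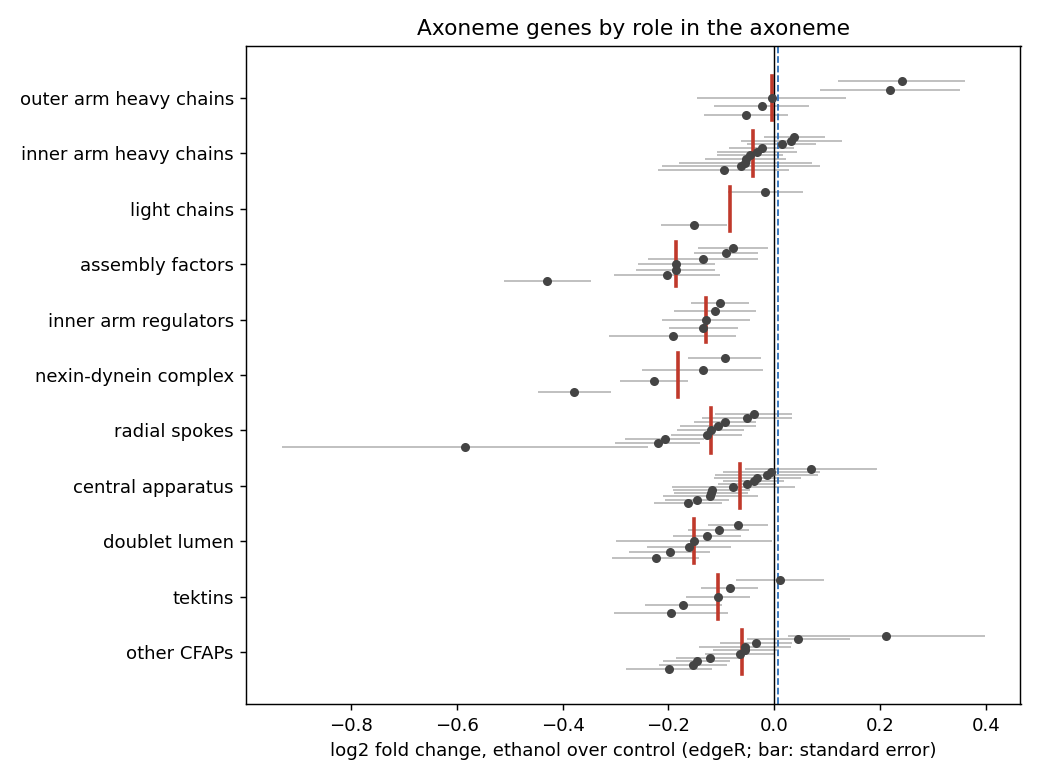
Log2 fold changes of the 76 axoneme genes, ethanol over control, by role; points are genes, grey bars standard errors, red lines the median of a role, and the dashed blue line the median of all genes tested. The medians of the assembly factors and the nexin-dynein complex lie farthest left, at -0.18 each, and those of the heavy chains nearest 0.

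By role, the genes with the lowest medians were those that assemble the dynein arms and those of the nexin-dynein complex. All 7 assembly factors were below 0 with a median of -0.18, and 3 had an unadjusted p under 0.05 (background 5.89% lower and 7.45% higher). All 4 genes of the nexin-dynein complex were below 0 with a median of -0.18, and 2 had such a p. Medians were -0.15 for 7 proteins of the doublet lumen, -0.13 for 5 regulators of the inner arms, -0.12 for 9 radial spoke genes, -0.11 for 5 tektins and -0.08 for 2 dynein light chains. They were -0.06 for 12 genes of the central apparatus and -0.06 for 10 other CFAPs. For 10 inner arm heavy chains the median was -0.04 and for 5 outer arm heavy chains -0.0049, with 0 of these 15 at an unadjusted p under 0.05. In a group of 15 genes, 0 cannot be set apart from those backgrounds. Both heavy chain medians turned sign with single libraries. The inner arm median was 0.03 without ethanol library 3 or control library 2, and -0.08, -0.02 and -0.09 without ethanol library 1, control library 1 or control library 3. The outer arm median was 0.02, 0.10 and 0.18 without ethanol library 2, ethanol library 3 or control library 2, and -0.06, -0.05 and -0.03 without ethanol library 1, control library 1 or control library 3. Of the other roles, the central apparatus stood at -0.10 without ethanol library 1, and the radial spokes at -0.19 and other CFAPs at -0.12 without ethanol library 3. Other CFAPs were also at -0.10 without control library 2, and the lumen proteins at -0.10 and tektins at -0.07 without control library 3. Without a library, the median of the nexin-dynein complex ran from -0.25 to -0.15 and that of the assembly factors from -0.22 to -0.13. With an offset for transcript length, described below, heavy chains were not nearer 0 than the other axoneme genes (medians -0.18 and -0.15). None of these differences between roles was tested.

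Iqcd had the smallest p of all axoneme genes. It encodes a subunit of the nexin-dynein regulatory complex and lies on chromosome 5 at 120586771 to 120607115 of mm10 (Gene ID 75732). It was at 61.1, 61.1 and 63.0 CPM, the count scaled to library size, in ethanol libraries 1, 2 and 3, against 79.1, 74.9 and 86.8 CPM in control libraries 1, 2 and 3. The highest ethanol library was thus well below the lowest control, and the ethanol libraries were close to each other. Means were 61.8 ± 1.10 CPM with ethanol and 80.3 ± 6.01 CPM in controls (SD, n = 3). The difference was -0.38 on the log2 scale (SE 0.07, edgeR adjusted p = 0.127). By DESeq2 its adjusted p was 0.00187.

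Dnaaf2, also called kintoun, came next and is needed in the cytoplasm for folding and joining dynein arms before they enter the tail. It lies on chromosome 12 at 69189087 to 69200083 (Gene ID 109065). Its level was 49.2, 44.9 and 49.0 CPM in the ethanol libraries, against 56.9, 70.0 and 65.7 CPM in the controls. The diets did not overlap, and the controls were spread more widely. The log2 fold change was -0.43 (SE 0.08, edgeR adjusted p = 0.143), the lowest among axoneme genes above 1 CPM, and DESeq2 gave an adjusted p of 0.00229. Iqcd and Dnaaf2 were the 2 of 76 axoneme genes that DESeq2 called, where it called 1.81% of the genes to which it gave an adjusted p, so this count is near the background.

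Other assembly factors were lower by less. Dnaaf3 was at 45.4, 43.2 and 41.9 CPM with ethanol, against 45.7, 51.4 and 51.2 CPM in controls, so that control library 1 came within 1 CPM of the ethanol range. Dnaaf1, the most abundant of the assembly factors per length, was at 486, 446 and 528 CPM with ethanol, against 519.8, 541 and 599 CPM in controls. Here the diets overlapped, since ethanol library 3 exceeded control library 1. Log2 fold changes were -0.18 (SE 0.07) for Dnaaf3 and -0.19 (SE 0.07) for Dnaaf1, with edgeR adjusted p of 0.305 and 0.314.

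In the nexin-dynein complex, Drc7 was at 78.5, 71.6 and 79.9 CPM in ethanol libraries, against 88.2, 89.6 and 91.5 CPM in controls. The controls were close together and every ethanol library was below them (log2 fold change -0.23, SE 0.06, edgeR adjusted p = 0.187). Drc3 averaged 122 ± 5.31 CPM with ethanol and 130 ± 9.53 CPM in controls, with overlap between the diets. Drc1 also overlapped, with a log2 fold change of -0.14 (SE 0.11).

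**Figure D2:**
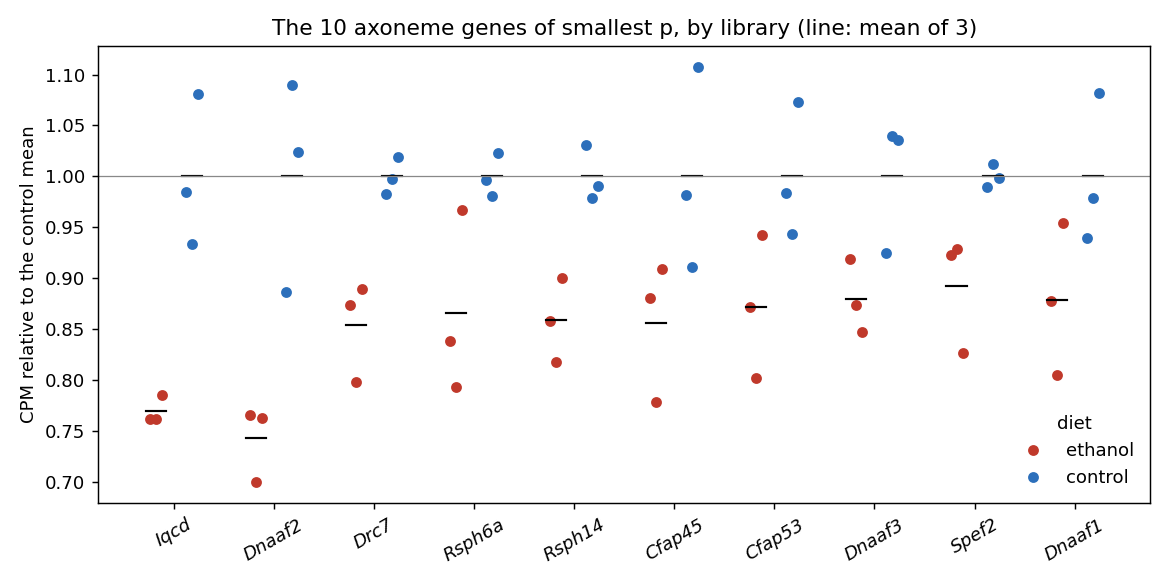
CPM of the 10 axoneme genes of smallest p in each library, divided by the gene's control mean; red points are ethanol libraries, blue points controls, short lines means of 3. Iqcd and Dnaaf2 show the lowest ethanol values, and in Dnaaf1 ethanol library 3 lies among the controls.

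Among the radial spoke genes the pair Rsph6a and Rsph4a encode related proteins of the spoke head, the first known for sperm and the other for motile cilia of other tissues. Rsph6a was at 152, 143 and 175 CPM with ethanol, against 179.9, 177 and 185 CPM in controls, and ethanol library 3 was the nearest to the control range (log2 fold change -0.21, SE 0.07, edgeR adjusted p = 0.265). Rsph4a was near the limit of detection, at 0.327, 0.229 and 0.341 CPM with ethanol, against 0.492, 0.406 and 0.447 CPM in controls. Its log2 fold change of -0.58 had an SE of 0.35 (edgeR adjusted p = 0.5). Rsph14 was at 18.6, 17.7 and 19.5 CPM with ethanol, against 22.4, 21.2 and 21.5 CPM in controls, again without overlap (log2 fold change -0.22, SE 0.08). Rsph1, a spoke head protein and the most abundant axoneme gene per length, overlapped between the diets, at 444.7 ± 38.4 FPKM with ethanol and 470.4 ± 14.9 FPKM in controls. Rsph3a and Rsph3b are near-identical copies, and how reads were split between them is not known. Their log2 fold changes were -0.12 and -0.13 (SE 0.06 and 0.07).

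Of the proteins that line the doublet lumen, Cfap45 was at 203, 179.8 and 209.8 CPM with ethanol, against 226, 210.2 and 256 CPM in controls. Ethanol library 3 and control library 2 nearly met. Cfap53, known also for its part in setting the left-right body axis, was at 62.2, 57.2 and 67.3 CPM with ethanol, against 70.2, 67.4 and 76.6 CPM in controls, where those same libraries again nearly met. Log2 fold changes were -0.22 (SE 0.08) and -0.20 (SE 0.08), with edgeR adjusted p of 0.274 and 0.302. For 5 of the 7 lumen genes the ethanol libraries lay below all controls (background 9.01%), Cfap20, Cfap52 and Cfap161 being the others.

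The 5 tektins form filaments in the doublet wall, and 4 of them were below 0. Tekt4 was at 272, 257 and 277 CPM with ethanol, against 294, 279 and 335 CPM in controls (log2 fold change -0.17, SE 0.07, edgeR adjusted p = 0.337). Tekt3 varied least within a diet, at 166, 163 and 165 CPM with ethanol, against 176, 172 and 175 CPM in controls. Both genes had no overlap between the diets. Tekt1 was at 408, 393 and 414 CPM with ethanol, against 438, 409 and 461 CPM in controls, and overlapped. Tekt2 was at 97.9, 88.0 and 92.3 CPM with ethanol, against 90.5, 100.3 and 127.8 CPM in controls, where control library 3 stood far above the rest. Tekt5, a tektin of the sperm tail, was at 82.6, 83.1 and 91.7 CPM with ethanol, against 75.6, 86.1 and 93.8 CPM in controls. Its log2 fold change was 0.01 (SE 0.08), and its sign turned without ethanol library 3 (-0.05) or control library 1 (-0.08).

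In the central apparatus, Spef2, which mice need for normal sperm tails, was at 100.5, 101.2 and 90.1 CPM with ethanol, against 107.8, 110.3 and 108.8 CPM in controls. Control libraries were within 3 CPM of each other, and all were above the ethanol libraries (log2 fold change -0.16, SE 0.06, edgeR adjusted p = 0.305). Cfap69, a projection protein whose loss in mice disrupts sperm tails, was at 409, 449 and 415 CPM with ethanol, against 466, 452 and 491 CPM in controls. Cfap221 had a log2 fold change of -0.12 (SE 0.07), without overlap between the diets. Spag6, Spag16 and Spag17, the best known subunits of this apparatus, overlapped between the diets, with log2 fold changes of -0.12, -0.04 and -0.05. A near-identical copy, Spag6l, makes the Spag6 value uncertain. Cfap74 was the only gene of this role above 0, at 0.07 (SE 0.13).

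Inner arm regulators and light chains also lay slightly lower. Cfap43, needed for the mouse sperm tail, was at 367, 373 and 361 CPM with ethanol, against 411, 387 and 384 CPM in controls (log2 fold change -0.10, SE 0.06). Cfap57 and Cfap73, which hold inner arms in the alga Chlamydomonas, had log2 fold changes of -0.13 and -0.19 and overlapped. The inner arm light chain Dnali1 was at 152, 145 and 158 CPM with ethanol, against 173, 159.9 and 173 CPM in controls (log2 fold change -0.15, SE 0.06, edgeR adjusted p = 0.319). The outer arm light chain Dnal1 averaged 28.5 ± 0.233 CPM with ethanol and 28.8 ± 0.844 CPM in controls, with a log2 fold change of -0.02 (SE 0.07). Of the other CFAPs, Cfap58, Cfap99 and Cfap36 had log2 fold changes of -0.20, -0.15 and -0.15, and of these only Cfap99 had no overlap.

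Levels per length differed widely between related genes. They are given in FPKM, which divides a count by transcript length and library size. Dnah8 and Dnah17, the outer arm heavy chains of sperm, were at 191 ± 20.8 and 34.3 ± 6.68 FPKM with ethanol, and 195 ± 20.3 and 33.8 ± 7.56 FPKM in controls (SD, n = 3). Dnah5, Dnah9 and Dnah11, the outer arm heavy chains of airway cilia, were at 0.856 ± 0.192, 1.03 ± 0.10 and 0.469 ± 0.0153 FPKM with ethanol, and 0.733 ± 0.0268, 1.03 ± 0.0575 and 0.381 ± 0.0355 FPKM in controls. The order was Dnah8, Dnah17, Dnah9, Dnah5 and Dnah11, in which Dnah9 and Dnah5 did not differ beyond their spread in ethanol libraries. Dnah8 was 198 to 302 times as high as Dnah5, and 5.08 to 6.51 times as high as Dnah17, over the 6 libraries. Rsph6a was 632 to 1158 times as high as Rsph4a. Over all 76 genes the mean level ran from 0.0885 FPKM for Rsph4a to 458 FPKM for Rsph1, with a median of 36.5 FPKM where all genes tested had 2.53 FPKM.

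**Figure D3:**
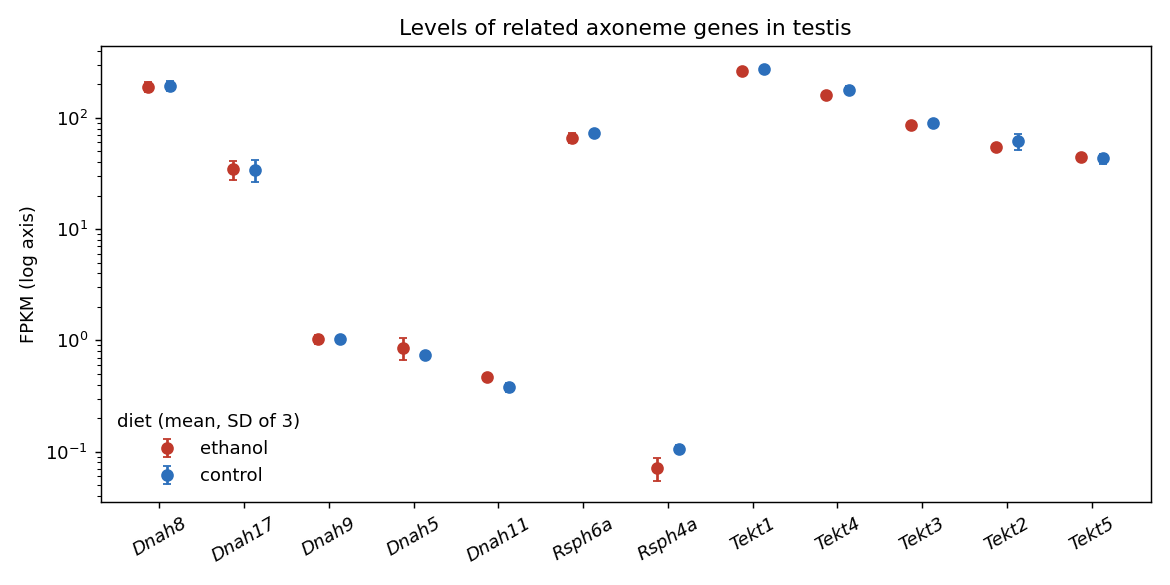
FPKM on a log axis of outer arm heavy chains, a pair of spoke head genes and the tektins, as mean and SD of 3 libraries per diet, ethanol in red and control in blue. Dnah8 near 190 FPKM and Dnah17 near 34 FPKM lie far above Dnah9, Dnah5 and Dnah11, all at about 1 FPKM or less, under both diets.

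The dynein heavy chains, the motor proteins of the arms, lay nearer 0 than the other axoneme genes, a difference that was not tested. Their median log2 fold change was -0.02, with 10 of 15 below 0, against -0.12 and 57 of 61 for the other axoneme genes. The heavy chain median turned to 0.02 on log2(TPM + 1), where that of the other genes was -0.06, and it ran from -0.08 to 0.04 when each library was left out. Dnah8 was at 3341, 3034 and 2769 CPM with ethanol, against 3125, 3461 and 2898 CPM in controls. Dnah17 was at 617, 497 and 433 CPM with ethanol, against 452, 642 and 458 CPM in controls. In both genes ethanol library 1 and control library 2 stood at the top of their diets, and the diets overlapped throughout. Log2 fold changes were -0.05 (SE 0.08) for Dnah8 and -0.0049 (SE 0.14) for Dnah17, with edgeR adjusted p of 0.821 and 0.992, and both signs turned without ethanol library 3 (0.0043 for Dnah8 and 0.10 for Dnah17) or control library 2 (0.02 for Dnah8 and 0.18 for Dnah17).

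On the higher side, Dnah11 was at 7.30, 7.20 and 6.63 CPM with ethanol, against 6.18, 6.36 and 5.34 CPM in controls. It was the 1 axoneme gene whose ethanol libraries lay above all controls (log2 fold change 0.24, SE 0.12, edgeR adjusted p = 0.420). Its transcript is long, at 15.4 kb. Of all 5140 genes tested of at least 5 kb, 795 lay above all controls and 264 below. Dnah5 was at 18.2, 13.6 and 12.3 CPM with ethanol, against 12.7, 12.3 and 12.8 CPM in controls, and ethanol library 1 alone stood apart (log2 fold change 0.22, SE 0.13). Dnah9 was at 15.9, 15.7 and 14.0 CPM with ethanol, against 15.1, 15.9 and 15.4 CPM in controls. Its log2 fold change was -0.02 (SE 0.09). Of the inner arm heavy chains, all 10 overlapped, between -0.10 for Dnah10 and 0.04 for Dnah7c. Dnah10 depended on single libraries, running from -0.28 without ethanol library 1 to -0.00036 without ethanol library 3, with -0.15 without control library 1 and -0.03 and -0.0045 without ethanol library 2 or control library 2. Dnah7a, Dnah7b and Dnah7c are near-identical copies on chromosome 1, so that their separate values are uncertain. They stood at -0.05, 0.01 and 0.04.

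Heavy chains varied from library to library within a diet. Ethanol library 1 was the highest of its diet for 11 of 15 heavy chains and ethanol library 3 the lowest for 15 of 15. Among controls, library 2 was the highest for 12 and library 3 the lowest for 10. With each gene centred on its 6 libraries, heavy chains averaged 0.15, 0.01 and -0.16 on the log2 scale in ethanol libraries 1, 2 and 3, and -0.02, 0.11 and -0.09 in control libraries 1, 2 and 3. The other axoneme genes averaged -0.04, -0.09 and -0.05 in the ethanol libraries, and 0.05, 0.04 and 0.09 in the controls, without overlap between the diets. The order of libraries was not particular to heavy chains. The 11 other axoneme genes of at least 5 kb averaged 0.07, 0.0054 and -0.16 with ethanol, and 0.02, 0.12 and -0.06 in controls. All genes of at least 5 kb averaged 0.12, 0.05 and -0.02 with ethanol, and -0.07, 0.04 and -0.11 in controls. With ethanol library 1 and control library 2 both left out, an alternative chosen after seeing the data, the medians were -0.02 for heavy chains and -0.13 for the others, and 21 axoneme genes were at an unadjusted p under 0.05 on the lower side (background 6.37%).

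**Figure D4:**
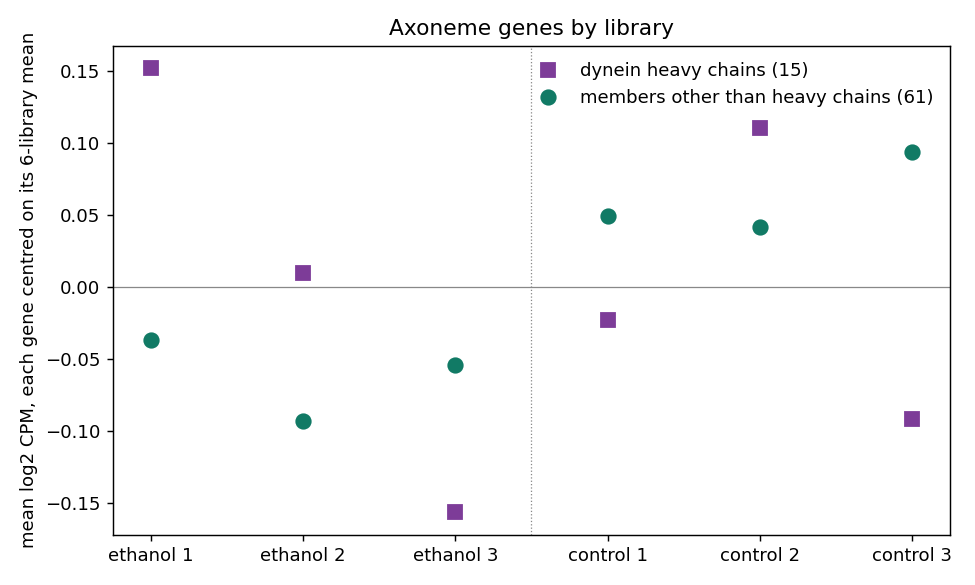
Mean log2 CPM per library of 15 dynein heavy chains (purple squares) and 61 other axoneme genes (green circles), each gene centred on its 6-library mean. Circles lie between -0.09 and -0.04 in ethanol libraries and between 0.04 and 0.09 in controls, while squares run from -0.16 to 0.15 within the ethanol diet alone.

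Heavy chain transcripts are the longest of the set, and length moved with these values. Lengths implied by the deposited counts and FPKM were 13.1 to 17.3 kb for heavy chains, against 0.774 to 11.4 kb for the others. Among all genes tested, those of at least 5 kb had a median log2 fold change of 0.07 and the shorter ones -0.0093. Axoneme genes were below both, at -0.03 for 26 genes of at least 5 kb, heavy chains included, and -0.13 for 50 shorter ones. The 11 long axoneme genes that are not heavy chains, Cfap47 and Cfap54 among them, had a median of -0.03. Across the 76 genes, which share libraries and are not independent, log2 fold change and log2 length had a Pearson r of 0.40 and a Spearman rho of 0.46, and r was 0.12 within the 61 other genes. With an offset for transcript length in each library, the heavy chain median was -0.18 and that of the other genes -0.15, and 31 axoneme genes had an unadjusted p under 0.05 on the lower side (background 9.16%). The split at 5 kb was chosen after the values were seen.

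**Figure D5:**
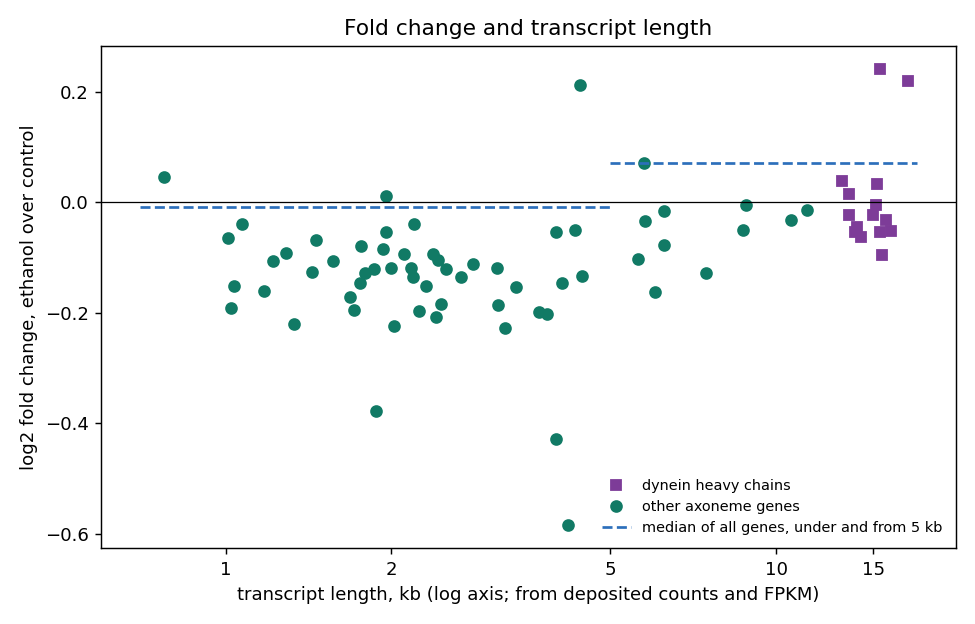
Log2 fold change of each axoneme gene, ethanol over control, against transcript length on a log axis; purple squares are dynein heavy chains, green circles the other axoneme genes, dashed blue lines the medians of all genes under 5 kb (-0.0093) and from 5 kb (0.07). Nearly all circles and squares lie below the dashed line of their length class.

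Promoter sequences were searched because axoneme genes share known regulators: RFX factors bind the X-box, FOXJ1 a forkhead motif and CREM, in spermatids, the cyclic AMP response element. The RefSeq promoter table (GRCm38.p6, the assembly behind mm10) matched 64 of the 76 genes, and the 250 bases before each start were searched on both strands. The X-box, taken as GTNNCC and GGNNAC with 2 free bases between them and N for any base, was found in 6 of 64 genes (9.38%), against 1.81% of all 27025 genes with a window. The hexamer GTTGCC, which can lie inside an X-box, was found in 19 genes (29.7%), against 11.8%. The forkhead core TGTTTAC was in 4 genes (6.25%, against 3.54%) and the response element TGACGTCA in 1 (1.56%, against 1.77%). Axoneme genes with and without the hexamer had median log2 fold changes of -0.09 and -0.10. For the forkhead core, found in 4 genes, the medians with and without it were -0.09 and -0.09. Those with and without an X-box had -0.16 and -0.09. The 6 genes with an X-box include no dynein heavy chain, and the difference was not tested. Cfap298, an assembly factor, holds a fully palindromic X-box, GTTGCCCGGGCAAC, 188 to 175 bases before its start. Windows are shown for Dnaaf2, the gene of lowest fold change above 1 CPM, for Cfap206, the second most abundant axoneme gene per length, and for tektins 1 and 4, with X-box and GTTGCC matches on either strand in capitals.
Dnaaf2, chr12:69198430-69198679, minus strand: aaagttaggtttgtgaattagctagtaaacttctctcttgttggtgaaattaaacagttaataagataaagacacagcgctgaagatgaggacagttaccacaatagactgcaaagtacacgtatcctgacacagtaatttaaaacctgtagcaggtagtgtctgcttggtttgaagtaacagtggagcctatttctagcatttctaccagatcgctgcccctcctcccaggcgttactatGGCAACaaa
Cfap206, chr4:34730207-34730456, minus strand: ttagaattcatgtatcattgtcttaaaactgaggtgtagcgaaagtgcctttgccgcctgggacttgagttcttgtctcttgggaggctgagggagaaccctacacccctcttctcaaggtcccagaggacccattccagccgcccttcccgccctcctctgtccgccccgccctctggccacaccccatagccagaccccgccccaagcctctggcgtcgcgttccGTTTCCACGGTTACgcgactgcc
Tekt1, chr11:72361883-72362132, minus strand: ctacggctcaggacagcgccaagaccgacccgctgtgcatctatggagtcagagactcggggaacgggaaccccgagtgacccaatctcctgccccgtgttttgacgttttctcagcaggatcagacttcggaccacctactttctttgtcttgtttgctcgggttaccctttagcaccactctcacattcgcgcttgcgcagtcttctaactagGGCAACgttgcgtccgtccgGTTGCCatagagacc
Tekt4, chr17:25471340-25471589, plus strand: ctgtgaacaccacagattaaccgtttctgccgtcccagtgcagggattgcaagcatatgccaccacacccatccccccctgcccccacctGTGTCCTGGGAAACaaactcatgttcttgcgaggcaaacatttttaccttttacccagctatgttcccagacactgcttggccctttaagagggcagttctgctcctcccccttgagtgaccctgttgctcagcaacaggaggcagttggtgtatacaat
Of these windows, those of Dnaaf2, Tekt1 and Tekt4 lie inside the span that RefSeq gives for the gene and so precede an inner start. The window of Cfap206, from 34730207, lies partly inside a span that ends at 34730263, so its start is also slightly inside. Tekt4 spans 25454549 to 25476602 on chromosome 17, plus strand in the promoter table, so that its window is far from the outer end of the gene. The match of Dnaaf2 is the hexamer, 9 to 4 bases before the start, and Tekt1 has the hexamer in both directions, within 35 bases of this start. Cfap206 has an X-box 23 to 10 bases before the start and Tekt4 one 160 to 147 bases before it. Tekt4 and Dnaaf2 stood at -0.17 and -0.43, and Cfap206 and Tekt1, both with overlap between the diets, at -0.09 and -0.11.

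Of the regulators, Foxj1, which switches on genes of motile cilia, was also lower, and whether this bears on the axoneme genes was not tested. It was at 61.7, 56.1 and 67.7 CPM with ethanol, against 83.2, 79.2 and 92.1 CPM in controls, with no overlap. Its log2 fold change was -0.46 (SE 0.08, edgeR adjusted p = 0.127). By DESeq2 it passed, with an adjusted p of 0.000724. Rfx2, an RFX factor needed for spermatid tails in mice, was at 157, 140.4 and 140.0 CPM with ethanol, against 149.9, 176 and 146 CPM in controls, and overlapped (log2 fold change -0.11, SE 0.08). Rfx1 was at 47.7, 39.0 and 44.7 CPM with ethanol, against 50.3, 60.8 and 50.8 CPM in controls (log2 fold change -0.30, SE 0.10, edgeR adjusted p = 0.223). Over 22 tested regulators of cilia and spermatid genes, 17 were below 0 with a median of -0.11, and 2 had an unadjusted p under 0.05, both lower, where 5.89% of all genes were lower. The median was -0.07 without ethanol library 3.

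Axoneme genes outside the 76 were read from a further list. It held docking complex, central pair, doublet and assembly genes under other names, and 78 of 79 in the table were tested. Of these, 69 were below 0 with a median of -0.10, and 21 had an unadjusted p under 0.05, all lower (background 5.89%). Ccdc65, also called Drc2, was at 209, 192 and 193 CPM with ethanol, against 223, 239 and 235 CPM in controls (log2 fold change -0.23, SE 0.06, edgeR adjusted p = 0.166, DESeq2 adjusted p = 0.0479). Spag8, a protein of the doublet lumen, was at 57.5, 51.3 and 57.8 CPM with ethanol, against 71.5, 66.4 and 65.3 CPM in controls (log2 fold change -0.29, SE 0.07, edgeR adjusted p = 0.157, DESeq2 adjusted p = 0.0350).

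Markers of the cells that could carry these transcripts moved as well. In bulk tissue, fewer cells of a type and less RNA per cell cannot be told apart. Spermatocyte markers had a median log2 fold change of -0.10, with 15 of 19 below 0, and their summed level was 3753 to 3881 CPM with ethanol and 4269 to 4279 CPM in controls. Round spermatid markers had a median of -0.07, with 22 of 24 below 0 and sums of 5003 to 5269 CPM with ethanol and 5085 to 5575 CPM in controls. Elongating spermatid markers had a median of 0.01, with 7 of 17 below 0 and sums of 22613 to 25770 CPM with ethanol and 22372 to 24831 CPM in controls. That median turned to -0.04 without ethanol library 3 and -0.0083 without control library 2, and was 0.06 without ethanol library 1, 0.03 without control library 3, and 0.0076 and 0.0057 without ethanol library 2 or control library 1. Most Sertoli cell markers were higher, with 18 of 20 above 0, a median of 0.22 and sums of 1224 to 1379 CPM with ethanol and 1054 to 1123 CPM in controls. The lowest Sertoli value was -1.09, and 11 markers were higher and 1 lower at an unadjusted p under 0.05 (background 7.45% and 5.89%). Medians were 0.24 for macrophage markers (10 of 11 above 0, and 0.15 without control library 1) and 0.13 for spermatogonia (11 of 13 above 0). At an unadjusted p under 0.05, 1 macrophage marker was lower, C1qa at -0.44, and 2 were higher (background 5.89% and 7.45%). Of the spermatogonia markers 1, Id4, was lower at such a p and 0 were higher, and the lowest value was -0.41. Leydig cell markers went both ways, with 4 lower and 2 higher of 10 at an unadjusted p under 0.05 (background 5.89% and 7.45%), from -1.30 for Cyp11a1 to 0.55 for Hsd3b6. Their median of -0.04 ran from -0.16 without ethanol library 2 to 0.0069 without control library 2, with -0.0026, -0.09 and -0.08 without ethanol library 1, control library 1 or control library 3. Of 14 markers of multiciliated cells, which line the ducts that leave the testis, 10 were tested and 7 of these were below 0. Their sum was 463 CPM in each ethanol library and 473 to 556 CPM in controls. Nearly all of it came from Deup1 and Dynlrb2, while Mcidas was listed at 0 in all 6 libraries. Dynlrb2 is also on the list of intraflagellar transport genes, so this sum cannot be read as the amount of multiciliated cells. The part of these cell types in the axoneme values was not tested.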

How the data were processed

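Testis RNA of 6 libraries was measured, with ribosomal RNA depleted before stranded libraries were made, per the labels' protocols. HISAT2 and mm10 are named in the submitters' processing notes. Which tool counted reads, with which strand mode and gene models, is not given in the sources used here. Overlapping or antisense genes and near-identical copies are therefore uncertain. Raw read counts per gene are what the authors deposited, per the file headers. FPKM and TPM were computed by the authors, per the file headers. There were 0 sample columns outside these libraries, and each of the 15 pairs of libraries differed by more than sampling noise.

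All counts were fitted with edgeR 4.0.16 in R 4.3.3, with filterByExpr, TMM scaling, the quasi-likelihood F-test without covariates and Benjamini-Hochberg adjustment over 25073 genes. CPM values are TMM-scaled, and each standard error was derived from the F statistic. Alternatives were DESeq2 1.42.0, limma 3.58.1 (voom, and limma-trend on log2 FPKM and log2 TPM with pseudocounts of 1 and 0.1), other scalings and filters, a replicate block, a length offset and each library left out. Genes named were a panel (outer arm heavy chains, Rsph4a, Rsph6a, tektins, Iqcd, Foxj1, Rfx2), the 10 axoneme genes of smallest p, up to 3 of smallest p and the most abundant per role, and 2 per other list. Some list genes were followed under the alternatives but are not described. Of these, Cst9, Cst12, Mrc1, Kit, Hspa1l and Cabs1 stayed above 0 in every setting that followed them. Ybx2, Hspa2, Tssk6, Tex21, Catsper1 and Sec14l3 stayed below 0. Others (Drc1, Rsph3a, Spag6, Spag16, Spag17, Cfap47, Cfap54, Cfap74, Cfap298, Dnah7b, Cfap20, Cfap52, Cfap161 and cell type markers at 0 or leading a sum) were named after their values were seen. The axoneme genes, lists and roles were chosen with earlier results of these data known. Coordinates are RefSeq's on GRCm38.p6, matched by Gene ID for 76 of 76.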

Additional observations from a re-analysis of the deposited data

How the results depend on the processing

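Genes called over the whole table numbered 0, and under alternatives 2 with upper-quartile scaling, 2 with at least 1 CPM in 3 libraries, 330 with DESeq2, 5 with limma-voom, 1 on log2(FPKM + 1), 4 with the length offset, 5 at an adjusted p of 0.1 and 0 to 3 without a library. DESeq2 called 2 axoneme genes (background 1.81%), and no other setting called any. The count of 16 lower axoneme genes at an unadjusted p under 0.05 was 9 with total counts, 8 on log2(FPKM + 1) and log2(FPKM + 0.1), 4 on log2(TPM + 1), 3 on log2(TPM + 0.1), 31 with the length offset and 5 to 21 without a library, and the higher count was 0 to 1 without a library. The 21 axoneme genes with ethanol below all controls were 9 on log2(TPM + 1), 10 on log2(TPM + 0.1), 40 with the length offset, 25 to 36 without a library and 42 without ethanol library 1 and control library 2, where fewer libraries make overlap rarer (background 22.1%). The 1 with ethanol above all controls was 0 on log2(FPKM + 1), log2(TPM + 1) and with the length offset, and 1 to 2 without a library. The share over all genes changes with the setting and is not given for each of these counts. Counts from different settings therefore cannot be compared by themselves, and those without a share are not set against a background. The axoneme median was -0.073 with total counts, -0.047 on log2(TPM + 1) and log2(TPM + 0.1), -0.15 with the length offset and -0.11 to -0.09 without a library. The cause was not tested. Of 66 named genes, 7 changed sign somewhere. On log2(FPKM + 1) and log2(TPM + 1) these were Dnah9 (9.7e-05 and 0.022), Dnah17 (0.023 and 0.055) and Dnal1 (0.0085 and 0.038), and Dnah8 (0.0019) on log2(TPM + 1) alone. Dnah7c was at -0.11 with the length offset. Without a library, Dnah17 ran from -0.15 to 0.18, Dnah8 from -0.12 to 0.016, Dnah9 from -0.057 to 0.025, Dnah6 from -0.13 to 0.00095, Dnal1 from -0.038 to 0.0070 and Tekt5 from -0.075 to 0.080. Without ethanol library 1 and control library 2, Dnah17 was at 0.031 and Dnal1 at 0.0043.

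The replicate numbers shared by the diets were tried as a replicate block, which called 15 genes, 0 of them axoneme genes. With it, 18 axoneme genes were lower at an unadjusted p under 0.05, and the share over all genes is not given here. Foxj1 had an adjusted p of 0.0341 by edgeR with this block. Over all genes, deviations of same-numbered libraries had correlations of -0.04, 0.0016 and 0.095, and ethanol library 1 was closest to control library 2. Over the axoneme genes alone the same-numbered values were -0.16, 0.30 and 0.69, and ethanol library 1 with control library 2 had 0.59. These values went both ways and the labels state no pairing, so the numbers were not taken to pair the libraries. With 3 libraries per diet the median standard error of an axoneme log2 fold change was 0.07, so differences of this size cannot be resolved for single genes.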

Other observations

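Other parts of the sperm tail were read from lists, with axoneme genes left out of each. Intraflagellar transport carries parts to the growing tip of cilia and, in the mouse, of the sperm tail. Of its 34 tested genes 29 were below 0 and the median was -0.10 on the log2 scale. Of these genes 9 had an unadjusted p under 0.05 on the lower side and 1 on the higher side (background 5.89% and 7.45%). The dynein light intermediate chain Dync2li1, part of the motor that returns cargo from the tip, was at 31.9 ± 2.06 CPM with ethanol and 38.9 ± 3.67 CPM in controls (log2 fold change -0.29, SE 0.09, edgeR adjusted p = 0.203). Dynlrb1, a light chain also of the cytoplasmic motor, was the gene with such a p on the higher side, at 7.46 ± 0.698 CPM with ethanol and 5.43 ± 0.761 CPM in controls. Of 14 genes of CatSper, the calcium channel of the sperm tail, 13 were below 0 with a median of -0.11 (-0.07 without ethanol library 1). Catsper2 was at 229, 221 and 227 CPM with ethanol, against 257, 247 and 254 CPM in controls, without overlap (edgeR adjusted p = 0.240).

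Outer dense fibre and fibrous sheath genes, which wrap the axoneme and are transcribed late, had a median of -0.02 over 25 genes (0.04 on log2(TPM + 1)), with 18 below 0 and 2 at an unadjusted p under 0.05, both lower (background 5.89%). The median was -0.05 without control library 2, -0.04 without ethanol library 1, and -0.03 without ethanol library 3 or control library 3. The 2 lower genes at such a p were Fsip1, at 73.5 ± 5.04 CPM with ethanol and 91.1 ± 7.79 CPM in controls (DESeq2 adjusted p = 0.0295), and Ccdc42, at 58.1 ± 3.54 CPM with ethanol and 64.7 ± 2.12 CPM in controls. Differences between these lists and the axoneme genes were not tested.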
